A study of Mus musculus with 12 samples.

Results

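The genes examined are the enzymes and carriers of the urea cycle and of amino acid breakdown in mouse liver, a list of 55 genes that was drawn up by function and not by their values. Of these, 44 had an array feature of their own below the scale's shared maximum on at least 1 array, out of 30702 genes with a feature of their own in the whole series. Livers of 12 C57BL6/J mice aged 12 weeks were measured, each on its own Affymetrix transcriptome array: 3 KO females and 3 KO males of genotype ENT3 -/-, and 3 WT females and 3 WT males of genotype ENT3 +/+. ENT3, encoded by Slc29a3, is a nucleoside transporter of lysosomal and mitochondrial membranes. The labels give no tissue restriction, allele design or litter for the knockout. Mice are named here by genotype, sex and animal number, which no 2 groups share.

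The liver removes the nitrogen of dietary and body protein. Transaminases and dehydrogenases strip amino groups from amino acids, mitochondrial carbamoyl phosphate and ornithine form citrulline, and cytosolic enzymes turn citrulline into arginine, from which urea is split off. The carbon skeletons go on, mostly in mitochondria, to glucose, ketone bodies or the citric acid cycle. Many of these enzymes are among the most abundant transcripts of hepatocytes, and the urea cycle is concentrated in the hepatocytes around the portal vein.

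Not every listed gene could show a difference. Cps1, Tdo2, Mat1a, Ahcy and Bhmt stood at the shared maximum of 19.93 (deposited log2 signal) on all 12 arrays, so that 5 genes have only a lower bound. Ass1, Glul and Glud1 lay in features that carry a further symbol and are given no value, and Gls2, Sds and Sdsl are not analysed here. Among the 44 measured genes, Arg1, Gnmt, Tat and Hpd sat at their own highest value on 10 or 11 of the 12 arrays, and Got1 on 2. A gene on such a plateau cannot show a rise, and a fall only partly. Nags and Mccc1 lay close to the negative control features, but no measured gene had a group whose 3 mice all lay within their 95th percentile.

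The arrays were compared before the genes were. Slc29a3 averaged 4.13 ± 0.04 in KO livers, against 5.07 ± 0.18 in WT livers (SD, n = 6 each), a difference of -0.94 ± 0.07 (adjusted p = 0.000324), with both genotypes at levels within the range of the negative controls. Of the 12 hepatocyte markers 9, Alb among them, were at the shared maximum on every array. The mean of the 2 measured below it, Hnf4a and Cebpa, was lower in KO livers, at 11.63 ± 0.49, against 12.43 ± 0.47 in WT livers (SD, n = 6 each, exact permutation p = 0.01, BH p = 0.0214). Cebpa was called lower, and Hnf4a, with -0.46 ± 0.31 (adjusted p = 0.417), was not called. Both genes are also among the regulators examined below. Poly-A spikes, added to the RNA before labelling, averaged 5.44 ± 0.36 in KO arrays and 6.30 ± 0.32 in WT arrays (SD, n = 6 each; two-sided exact permutation of genotype inside each sex, p = 0.005, which is the lowest value 400 arrangements allow, and BH p = 0.015 across the 15 measures compared). Negative control features had a median of 3.86 to 3.97 in KO arrays and 3.75 to 3.84 in WT arrays (exact permutation p = 0.005), and the median transcript feature stood at 3.86 ± 0.0389 in KO arrays and 3.79 ± 0.0179 in WT arrays (exact permutation p = 0.015). Positive control features had a median of 8.12 ± 0.22 in KO arrays and 8.51 ± 0.12 in WT arrays (exact permutation p = 0.01). These 3 measures passed after adjustment over the 15 (BH p = 0.015, 0.0281 and 0.0214), and the hybridisation spikes, at 10.27 in KO arrays and 10.36 in WT arrays, did not (exact permutation p = 0.4). The averaged level of macrophage markers was higher in KO livers by 2.60 (9.18 to 12.92 in KO, 7.42 to 8.71 in WT; 11 of 13 markers called higher) and that of neutrophil markers by 2.65 (4.94 to 8.06 in KO, 4.11 to 4.61 in WT; 8 of 12, with 6 of the 12 inside the negative control range in every group), each with exact permutation p = 0.005. Lymphocyte, cholangiocyte and stellate marker means differed by 0.05 to 0.13 (exact permutation p = 0.145 to 0.785), with 1 of their 21 measured markers called, Cd79b of B cells, higher by 0.55 and inside the negative control range in every group. The endothelial mean differed by 0.19 (exact permutation p = 0.245), but its members went both ways: of 6 markers Lyve1 and Pecam1 were called higher, by 2.22 and 1.14, and Clec4g and Kdr lower, with -1.46 and -0.63. In both sexes the KO and WT ranges of the poly-A spikes did not overlap, so spike level and genotype cannot be told apart, and the part of the control features and cell markers in the results was not tested. In bulk liver, fewer cells of a type and less RNA per cell cannot be told apart either.

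Some livers stood apart. WT females 25 and 27 carried pancreatic enzyme transcripts: Cpa1, Cela1 and Prss2 had 9.85, 10.39 and 11.37 in WT female 25 and 8.12, 9.07 and 8.56 in WT female 27, while in the other livers these genes lay between 3.61 and 4.94. KO female 40 and KO male 18 were the lowest of their groups for most genes of the list, as described below. Counts are therefore also given without each of these pairs, settings chosen after seeing the data.

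The first comparison, over females and males together, asks how these genes differ in livers that lack the transporter. Of the 44 measured genes 19 were lower in KO livers, 0 were higher and 25 did not pass (limma, Benjamini-Hochberg adjusted p under 0.05 over all 65956 transcript features). The members called lower spanned the urea cycle (Otc, Slc25a13, Nags), phenylalanine and tyrosine breakdown (Pcbd1, Gstz1, Hgd, Qdpr), tryptophan breakdown (Kynu, Haao), the glycine and serine enzymes (Amt, Shmt1), proline and ornithine (Prodh2, Oat), the branched-chain and propionate steps (Hibadh, Pcca, Pccb, Mccc1, Mccc2) and lysine (Gcdh). Differences are of the deposited log2 signal, KO minus WT, and ± gives their standard error (SE) from the fit, with 6 mice per genotype. Their median over the 44 genes was -0.69, and 39 were negative and 5 positive. All 19 called genes had all 6 KO livers below the WT mean of their own sex, as did 29 of the 44.

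The calls have to be read against those of other genes. Over all transcript features 4.47% were called lower and 5.28% higher in KO, against 43.2% lower among the listed genes. The median feature lay near the median of the negative controls, and among 3820 protein-coding genes at least as bright as the dimmest listed gene, a set defined after the values were seen, 30.9% were called lower and 7.04% higher, with a median difference of -0.22. The share of the listed genes thus lay above both backgrounds, but much closer to that of bright genes. The bright set is bounded only from below and is not matched to the listed genes in brightness. The middle range of the listed genes (25th to 75th percentile) was -0.91 to -0.36, against -0.60 to 0.10 in the bright coding genes. Every KO value lay below every WT value in 5 of the 44 genes (Nags, Pcbd1, Gstz1, Amt and Hibadh), a share slightly below the 12.8% of the bright coding genes.

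**Figure D1:**
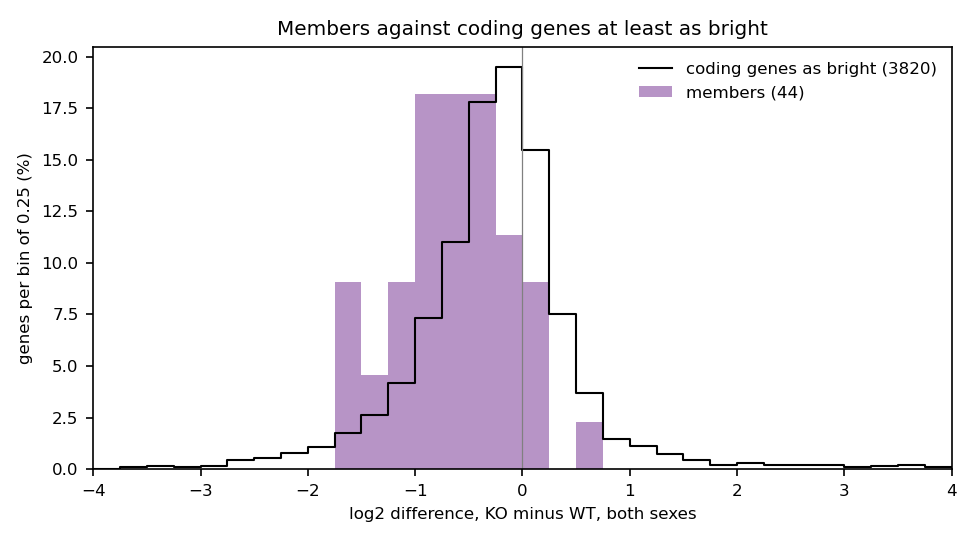
Share of genes (vertical axis, percent) per bin of 0.25 of the log2 difference, KO minus WT over both sexes (horizontal axis), for the 44 measured members (bars) and 3820 protein-coding genes at least as bright (line). The members are centred at -0.69 and the coding genes at -0.22, and the 2 distributions overlap widely; differences beyond 4 in size are not drawn.

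The count depended on the mice and on the spike level. Leaving out any 1 mouse gave 14 to 19 genes lower, with 2209 to 2853 of all features lower. Of the 19 genes 13 were called in each of these 12 fits, and 0 were higher. Without KO male 18 and KO female 40 there were 13 genes lower (3.43% of all features) and the median was -0.38, and without WT females 25 and 27 there were 16 genes lower (3.49% of all features) and the median was -0.73. Nags, Hgd, Pcca, Oat, Mccc1 and Mccc2 lost their call without the KO pair, and Shmt1, Oat, Mccc1 and Mccc2 without the WT pair. When the spike level of each array was added to the model, 0 of the 44 genes were called and the median was -0.61; only 1 of the 65956 features was then called lower and 2 higher, so that count says nothing particular to the list. Without the sex term 14 genes were lower (3.22% of all features), and Haao, Shmt1, Prodh2, Pcca and Gcdh missed the threshold, with adjusted p = 0.0523 to 0.108.

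**Figure D2:**
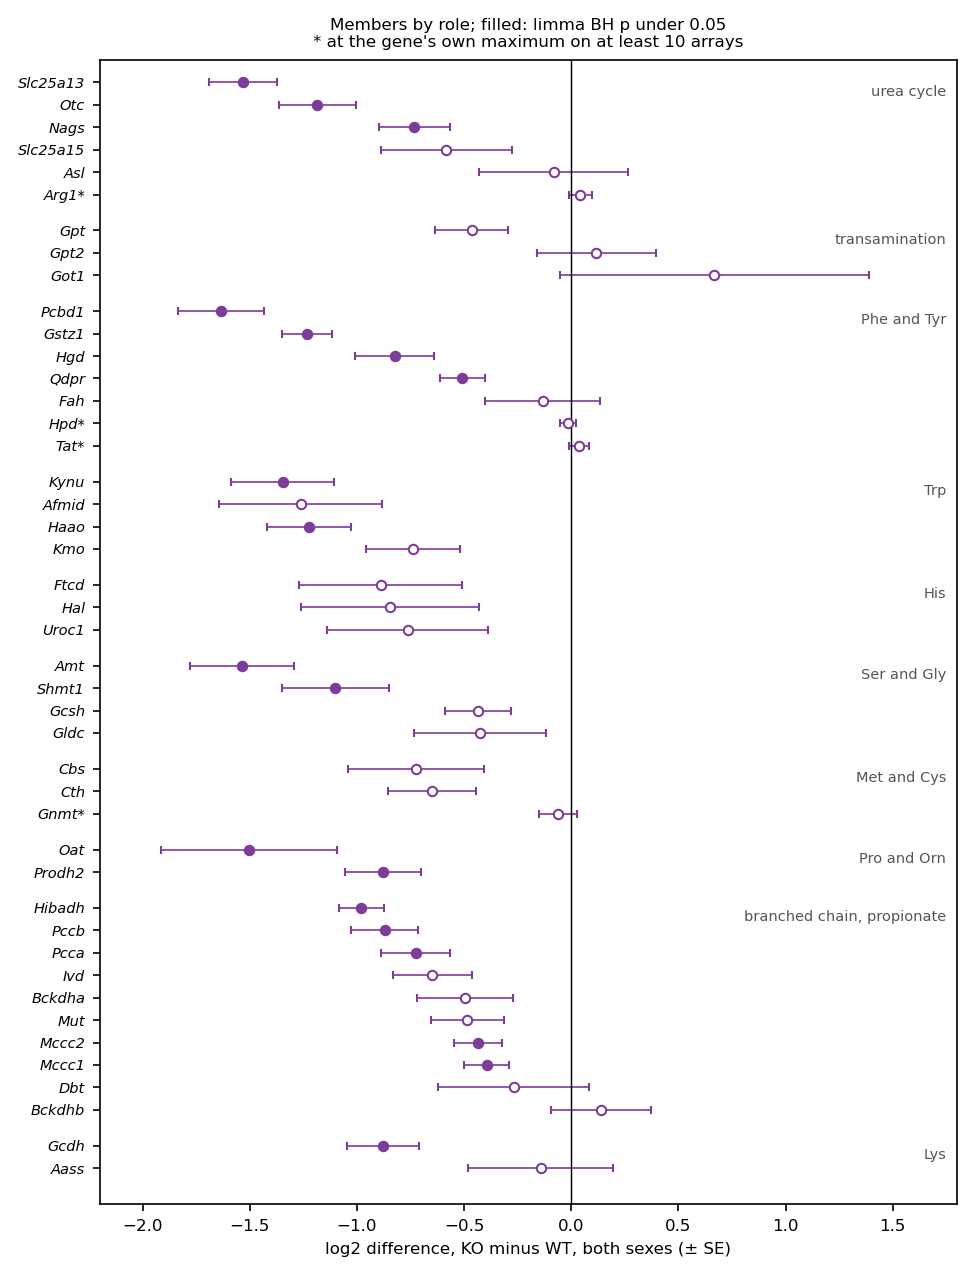
Log2 difference, KO minus WT over both sexes (horizontal axis, points with SE bars, 6 mice per genotype), for the 44 measured members grouped by role. Filled points passed the test, and 39 of the 44 differences lie left of 0, from -1.63 (Pcbd1) to 0.67 (Got1). An asterisk marks genes at their own maximum on 10 or 11 arrays.

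In the urea cycle, 3 of the 6 measured genes were lower in KO livers and 0 higher, with a median difference of -0.66. The largest difference was in Slc25a13, which encodes citrin, the carrier that brings aspartate out of the mitochondrion for the cycle. Slc25a13 had 12.52, 12.02 and 12.21 in KO females, against 13.96, 13.71 and 14.48 in WT females, and 13.81, 13.14 and 13.69 in KO males, against 14.79, 14.68 and 14.95 in WT males. Within each sex the KO values lay below the WT values, and the difference over both sexes was -1.53 ± 0.16 (adjusted p = 0.0008), a KO level of 0.346 of the WT level on the deposited scale. Otc, the mitochondrial ornithine transcarbamylase that forms citrulline, was also lower. Otc had 16.29, 16.17 and 16.43 in KO females, against 17.52, 17.62 and 18.16 in WT females, and 16.73, 16.53 and 17.41 in KO males, against 17.41, 17.89 and 18.08 in WT males. In females the groups did not overlap, and in males KO male 39 and WT male 17 had the same rounded value. The difference was -1.19 ± 0.18 (adjusted p = 0.00331).

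Nags makes N-acetylglutamate, without which the first enzyme of the cycle is inactive. Nags had 6.91, 6.17 and 6.86 in KO females, against 6.97, 7.38 and 7.64 in WT females, and 6.82, 6.81 and 6.72 in KO males, against 7.21, 7.62 and 7.85 in WT males. The highest KO value and the lowest WT value were close, in KO female 13 and WT female 25, and the groups did not overlap. The difference was -0.73 ± 0.17 (adjusted p = 0.0208), and it missed the threshold without WT female 38, WT male 23 or WT male 33 (adjusted p up to 0.053). Slc25a15, the ornithine and citrulline carrier, did not pass. Slc25a15 had 13.35, 13.09 and 13.19 in KO females, against 13.28, 13.39 and 14.31 in WT females, and 12.28, 13.36 and 13.61 in KO males, against 14.52, 13.05 and 13.83 in WT males. WT female 38 and WT male 17 were the high values, the groups overlapped, and the difference was -0.58 ± 0.30 (adjusted p = 0.292).

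The cytosolic steps that were measured gave no call. Asl had 16.50, 14.93 and 16.31 in KO females, against 15.20, 16.01 and 16.53 in WT females, and 15.51, 16.27 and 16.17 in KO males, against 16.57, 15.39 and 16.49 in WT males. The values of Asl, the argininosuccinate lyase, spread over more than 1 log2 unit within 3 of the groups, with KO female 40, WT female 25 and WT male 23 low, and the difference was -0.08 ± 0.35 (adjusted p = 0.922). Arg1, the arginase that releases urea, was at its own maximum of 19.04 in all 3 KO females, all 3 WT females, KO males 19 and 39, and WT males 17 and 33. The exceptions were KO male 18 at 19.01 and WT male 23 at 18.76. Its difference of 0.04 ± 0.05 (adjusted p = 0.695) describes a plateau and not the transcript's level.

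**Figure D3:**
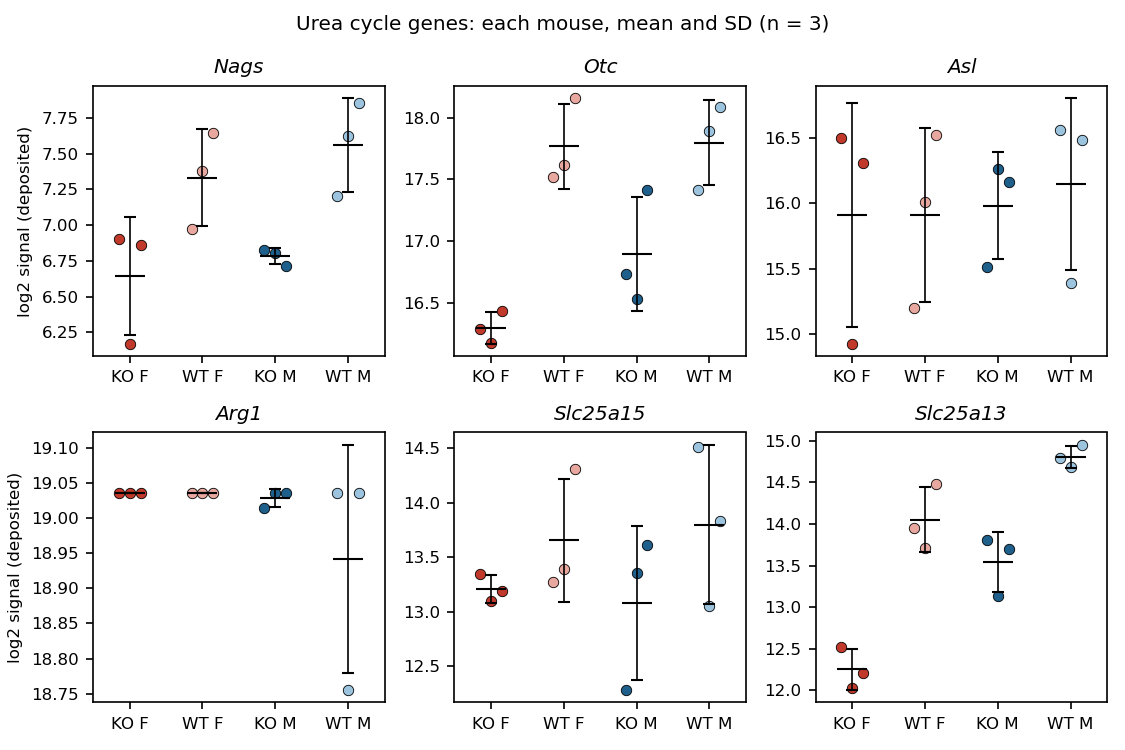
Deposited log2 signal (vertical axis, a separate scale in each panel) of the 6 measured urea cycle genes in each mouse (points), with the mean and SD of 3 mice per group; KO stands left of WT within each sex. Slc25a13 and Otc are lower in KO, Asl overlaps throughout, and Arg1 lies on a plateau at 19.04.

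None of the 3 measured genes of aspartate and alanine transamination, Got1, Gpt and Gpt2, passed. Of the other listed aminotransferases, given with their pathways below, Oat was called lower and Tat lay on a plateau. Got1, the cytosolic aspartate aminotransferase, had the widest spread of the list, with a standard deviation within groups of 1.40. Got1 had 18.28, 16.75 and 18.28 in KO females, against 15.10, 16.37 and 17.12 in WT females, and 14.01, 18.20 and 16.99 in KO males, against 17.77, 15.47 and 16.67 in WT males. KO male 18 had the lowest value of all and KO females 13 and 69 the highest, at a shared maximum, and the difference was 0.67 ± 0.72 (adjusted p = 0.643). Gpt and Gpt2, the cytosolic and mitochondrial alanine aminotransferases, differed by -0.46 ± 0.17 (adjusted p = 0.127) and 0.12 ± 0.28 (adjusted p = 0.849).

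Of the 7 measured genes of phenylalanine and tyrosine breakdown 4 were lower, 0 higher and 3 not called. Pcbd1 recycles the tetrahydrobiopterin used to hydroxylate phenylalanine. Pcbd1 had 12.85, 13.54 and 13.29 in KO females, against 15.17, 14.62 and 15.56 in WT females, and 14.42, 14.03 and 14.28 in KO males, against 15.53, 16.11 and 15.22 in WT males. All 6 KO values lay below all 6 WT values, and the difference of -1.63 ± 0.20 (adjusted p = 0.00153) was the largest of the whole list. Qdpr, the reductase that completes the same recycling, differed less. Qdpr had 10.23, 9.997 and 10.32 in KO females, against 10.79, 10.74 and 11.10 in WT females, and 10.31, 10.79 and 10.67 in KO males, against 11.01, 10.75 and 10.998 in WT males. KO male 19 lay within the range of the WT livers, and the difference was -0.51 ± 0.10 (adjusted p = 0.0136), which missed the threshold after quantile normalization.

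The lower part of the tyrosine pathway was uneven. Gstz1 isomerises maleylacetoacetate, the second last step. Gstz1 had 13.91, 13.61 and 13.99 in KO females, against 15.36, 15.40 and 15.88 in WT females, and 14.76, 15.22 and 15.13 in KO males, against 15.78, 15.84 and 15.77 in WT males. The groups did not overlap, the KO females were the lowest, and the difference was -1.23 ± 0.12 (adjusted p = 0.000575), the smallest p of the list. Hgd, which opens the homogentisate ring, had a smaller difference. Hgd had 16.89, 16.71 and 16.75 in KO females, against 17.33, 17.28 and 18.03 in WT females, and 16.53, 16.55 and 17.30 in KO males, against 17.72, 17.32 and 18.002 in WT males. KO male 39 lay just above WT female 27, and the difference was -0.82 ± 0.18 (adjusted p = 0.0197), or adjusted p = 0.0501 without KO male 18. Fah, the last enzyme, differed by -0.13 ± 0.27 (adjusted p = 0.82); KO female 40 alone was low, at 14.94, and the other 11 livers had 16.24 to 17.11. Tat and Hpd, the first steps, were at the shared maximum on 11 of the 12 arrays each.

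In the kynurenine route of tryptophan, 2 of the 4 measured genes were lower and all 4 differences were negative. Kynu, kynureninase, is shown first. Kynu had 11.20, 10.73 and 10.99 in KO females, against 12.14, 12.22 and 13.07 in WT females, and 11.52, 11.74 and 12.24 in KO males, against 13.39, 12.30 and 13.37 in WT males. The KO and WT ranges met only at KO male 39 and WT females 25 and 27, and the difference was -1.35 ± 0.24 (adjusted p = 0.00706). Haao oxidises 3-hydroxyanthranilate on the way to NAD. Haao had 12.16, 11.15 and 11.87 in KO females, against 13.11, 13.35 and 13.72 in WT females, and 12.65, 13.22 and 13.31 in KO males, against 13.69, 14.15 and 13.67 in WT males. KO males 19 and 39 lay above the lowest WT female, and the difference was -1.22 ± 0.20 (adjusted p = 0.00441). Kmo, kynurenine monooxygenase, differed by -0.74 ± 0.22 (adjusted p = 0.0662) and Afmid, the formamidase upstream of it, by -1.26 ± 0.38 (adjusted p = 0.0679), the last with -0.70 in females and -1.83 in males. Both genes passed in 2 of the 12 fits that left out 1 mouse.

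The 3 histidine genes, Hal, Uroc1 and Ftcd, which act in turn on the way from histidine to glutamate, had differences of -0.85 (adjusted p = 0.258), -0.76 (adjusted p = 0.262) and -0.89 (adjusted p = 0.191) and none passed. The same mice were low in all 3 genes: KO female 40 and KO male 18 had 14.26 and 14.68 for Hal, 10.02 and 10.32 for Uroc1 and 9.44 and 10.23 for Ftcd. These were the lowest values of each gene.

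Among the glycine and serine genes 2 of 4 were lower. Amt is the aminomethyltransferase of the glycine cleavage system. Amt had 7.86, 7.88 and 7.45 in KO females, against 9.86, 8.73 and 9.93 in WT females, and 7.70, 8.48 and 8.37 in KO males, against 9.63, 9.81 and 8.99 in WT males. All KO values lay below all WT values, and the difference was -1.54 ± 0.24 (adjusted p = 0.00404). The other listed parts of that system, Gldc and Gcsh, differed by -0.43 ± 0.31 (adjusted p = 0.464) and -0.43 ± 0.15 (adjusted p = 0.115) and did not pass. Dld, a part examined outside the list and named after its value was seen, was lower, with -0.31 ± 0.09 (adjusted p = 0.0481). Shmt1, the cytosolic serine hydroxymethyltransferase, was lower. Shmt1 had 8.20, 7.79 and 8.22 in KO females, against 9.29, 9.34 and 9.63 in WT females, and 9.43, 7.995 and 9.54 in KO males, against 9.50, 10.01 and 9.99 in WT males. KO males 18 and 39 lay among the WT values, and the difference was -1.10 ± 0.25 (adjusted p = 0.0208), not called without WT female 38, WT male 23 or WT male 33 (adjusted p up to 0.0552).

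The 3 measured methionine and cysteine genes did not pass. Cth and Cbs, the transsulfuration enzymes that make cysteine from homocysteine and serine, differed by -0.65 ± 0.20 (adjusted p = 0.0789) and -0.73 ± 0.32 (adjusted p = 0.201). Gnmt, the glycine methyltransferase that consumes excess methyl groups, was at its own maximum of 18.14 on 10 arrays. Both proline and ornithine genes were lower. Prodh2 oxidises hydroxyproline. Prodh2 had 9.67, 8.76 and 9.45 in KO females, against 10.39, 10.43 and 10.92 in WT females, and 10.49, 10.66 and 10.30 in KO males, against 10.63, 11.30 and 10.92 in WT males. The KO females stood below all other livers, the KO males overlapped the WT livers, and the difference was -0.88 ± 0.18 (adjusted p = 0.0127). Oat, ornithine aminotransferase, differed by -1.50 ± 0.41 (adjusted p = 0.046) with a wide spread within groups (0.79), and it was called in 2 of the 12 fits that left out 1 mouse.

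The branched-chain and propionate genes had 5 of 10 measured members lower and 0 higher, with a median difference of -0.49. The listed genes of the shared dehydrogenase complex at the top of the pathway did not pass: Bckdha, Bckdhb and Dbt differed by -0.49 (adjusted p = 0.219), 0.14 (adjusted p = 0.782) and -0.27 (adjusted p = 0.712). Dld, given above, also belongs to this complex. Hibadh, which oxidises 3-hydroxyisobutyrate from valine, had the smallest spread among members below their plateau. Hibadh had 10.45, 10.40 and 10.30 in KO females, against 11.45, 11.45 and 11.71 in WT females, and 10.88, 11.03 and 11.23 in KO males, against 11.62, 12.18 and 11.77 in WT males. All KO values lay below all WT values, and the difference was -0.98 ± 0.10 (adjusted p = 0.000836). The leucine enzymes Mccc1 and Mccc2, both subunits of methylcrotonyl-CoA carboxylase, differed by -0.40 ± 0.11 (adjusted p = 0.0436) and -0.43 ± 0.11 (adjusted p = 0.0385); they were called in 2 and 4 of the 12 fits that left out 1 mouse. Mccc2 had 8.66, 8.30 and 8.40 in KO females, against 9.01, 8.71 and 9.04 in WT females, and 8.36, 8.88 and 8.71 in KO males, against 8.87, 9.25 and 9.03 in WT males. Ivd, the step before them, differed by -0.65 ± 0.19 (adjusted p = 0.0558).

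Propionate enters the citric acid cycle through propionyl-CoA carboxylase, of which Pcca and Pccb encode the subunits, and methylmalonyl-CoA mutase. Pcca had 9.11, 8.83 and 8.998 in KO females, against 9.71, 9.59 and 10.07 in WT females, and 9.15, 9.96 and 9.75 in KO males, against 10.28, 10.58 and 9.92 in WT males. Pccb had 10.90, 10.32 and 10.78 in KO females, against 11.20, 11.90 and 11.76 in WT females, and 10.94, 11.33 and 11.40 in KO males, against 11.75, 12.24 and 12.05 in WT males. In females both genes were lower in every KO liver; in males the KO and WT values of Pcca overlapped at KO male 19, and those of Pccb did not overlap. The differences were -0.73 ± 0.16 (adjusted p = 0.0184) for Pcca and -0.87 ± 0.16 (adjusted p = 0.00756) for Pccb. The mutase gene, listed as Mut, differed by -0.48 ± 0.17 (adjusted p = 0.111). Of the lysine genes Gcdh, glutaryl-CoA dehydrogenase, was lower. Gcdh had 12.57, 11.80 and 12.36 in KO females, against 12.94, 13.46 and 13.69 in WT females, and 12.86, 13.03 and 13.35 in KO males, against 13.46, 13.87 and 13.82 in WT males. The groups did not overlap within either sex, and the difference was -0.88 ± 0.17 (adjusted p = 0.0103). Aass, which starts lysine breakdown, differed by -0.14 ± 0.34 (adjusted p = 0.851).

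**Figure D4:**
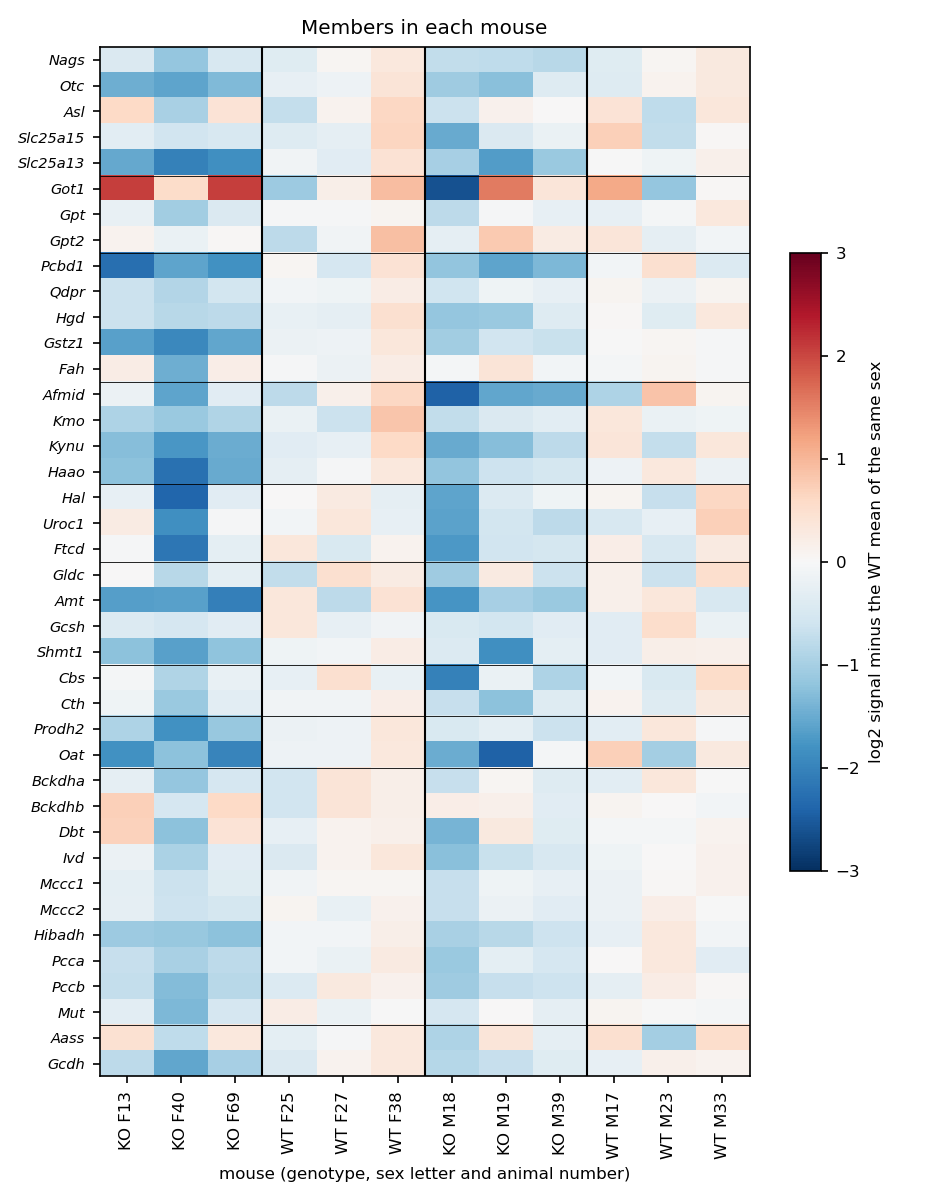
Log2 signal of each mouse minus the WT mean of its sex (colour, blue lower and red higher, from -3 to 3) for the 40 members not at their own maximum on 10 or more arrays, in rows by role, with KO left of WT within each sex. Blue runs through the KO columns for Slc25a13, Pcbd1, Gstz1, Amt and Hibadh, and the columns of KO female 40 and KO male 18 are blue in most rows.

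The spread among the mice of a group varied from gene to gene. Over the 40 genes below their plateau the standard deviation within groups ran from 0.19 in Hibadh to 1.40 in Got1, and Got1, Hal, Oat, Afmid, Ftcd and Uroc1 had the widest spread. Over the same 40 genes, KO female 40 was the lowest of its group in 36 and deviated from its group's mean by a median of -0.45. KO male 18 was the lowest in 29 (median deviation -0.30), with its largest deviation, -2.39, in Got1. WT female 25, a liver with pancreatic transcripts, was the lowest of its group in 24 (median deviation -0.19). The sources used here give no reason to set these livers aside, and the main values include them.

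Within females 12 of the 44 genes (27.3%) were lower and 0 higher, with a median of -0.67. Of all features 3.06% were called lower and 3.13% higher, and of the bright coding genes 23.8% and 6.34%. The female share thus lay slightly above that of the bright coding genes. Every KO female lay below every WT female in 24 of the 44 genes, against 40.9% of the bright coding genes. Within males 2 of the 44 genes (4.55%) were lower, Slc25a13 (-1.26, adjusted p = 0.0331) and Hibadh (-0.81, adjusted p = 0.0342), and 0 higher. The male median was -0.64. The backgrounds were 0.506% lower and 0.579% higher of all features and 4.42% and 0.314% of the bright coding genes. The male share was thus about that of the bright coding genes. Every KO male lay below every WT male in 17 genes, against 29.4% of the bright coding genes. Single omitted mice gave male counts of 0 to 4, with 63 to 395 of all features lower, and female counts of 6 to 13, with 925 to 2205. The counts were 7 in females (1.56% of all features) and 0 in males (0.0273%) when only the 6 arrays of that sex were fitted. The male count was 5 after quantile normalization, with 0.975% of all features lower, and 7 without dim features, with 7.83% of the 10483 features kept, so both backgrounds rose too.

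The medians of the sexes were close, and the difference between the sexes was tested directly. It passed for 0 of the 44 genes and for 0.00152% of all features (limma genotype by sex term). At an unadjusted p under 0.05 there were 3 genes, 6.82% of the list, against 6.67% of all features. They were Gstz1, with -1.71 in females and -0.76 in males (unadjusted p = 0.00215, adjusted p = 0.368), Prodh2, with -1.29 and -0.46 (unadjusted p = 0.0421), and Haao, with -1.67 and -0.78 (unadjusted p = 0.0479). Qdpr came next, with -0.69 in females and -0.33 in males (unadjusted p = 0.111). The difference was more negative in females in 27 of the 44 genes (61.4%), a share close to the 60.3% of the bright coding genes, against 43.2% of all features.

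**Figure D5:**
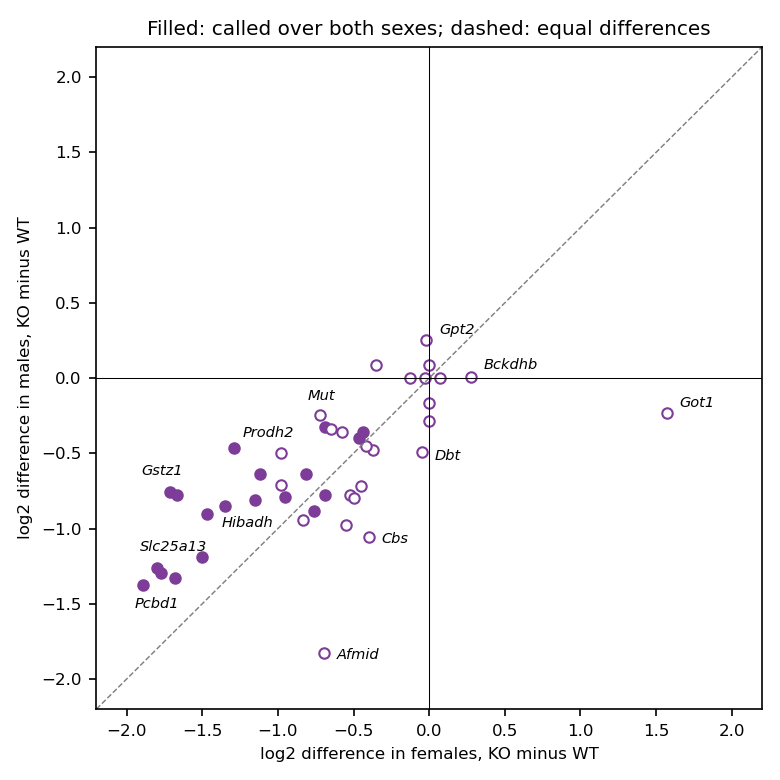
Log2 difference, KO minus WT, in females (horizontal axis) and in males (vertical axis) for the 44 measured members, 3 mice per group; filled points were called over both sexes and the dashed line marks equal differences. Most points lie in the lower left part, 27 of the 44 lie above the dashed line, and Got1 (1.57 in females, -0.23 in males) and Afmid (-0.70 and -1.83) lie farthest from it.

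Other genes of amino acid metabolism were examined beside the list. Of 60 measured further enzymes 27 were lower (45%), 1 higher and 32 not called, with a median of -0.67. The backgrounds were 30.9% lower and 7.04% higher of the bright coding genes and 4.47% and 5.28% of all features. The further enzymes were not filtered by brightness. Several of them, such as Phgdh and Psat1, lay below the limit of the bright coding genes. The 8 further enzymes with the smallest p were all lower. Acat1, the mitochondrial thiolase of isoleucine and ketone body metabolism, averaged 15.33 ± 0.45 in KO livers, against 17.08 ± 0.23 in WT livers (SD, n = 6 each), a difference of -1.75 ± 0.12 (adjusted p = 0.000196). Aadat, an aminotransferase of kynurenine and of the lysine product aminoadipate, averaged 12.61 ± 0.84 in KO livers, against 14.49 ± 0.36 in WT livers, a difference of -1.87 ± 0.16 (adjusted p = 0.000454). Both had no overlap between KO and WT livers. Shmt2, the mitochondrial partner of Shmt1, differed by -1.62 ± 0.16 (adjusted p = 0.00074) and Hnmt, which methylates histamine, by -1.35 ± 0.12 (adjusted p = 0.000513). The valine enzymes Aldh6a1 and Acad8 differed by -1.52 (adjusted p = 0.00224) and -0.98 (adjusted p = 0.0026), and the cobalamin genes Mmachc and Mmaa, which serve the mutase, by -1.04 (adjusted p = 0.00282) and -0.52 (adjusted p = 0.00252). The gene called higher, named after its value was seen, was Aldh18a1 of proline synthesis, at 4.25 in KO livers and 4.05 in WT livers; like Mmaa it lay inside the negative control range in every group.

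Of 24 measured regulators of these pathways 9 were lower (37.5%) and 2 higher. Among the bright coding genes 30.9% were lower and 7.04% higher, and among all features 4.47% and 5.28%. The regulators were not filtered by brightness either, and some, such as Glp1r, lay below the limit of the bright coding genes. Ppara, the nuclear receptor of fasting metabolism, differed by -1.62 ± 0.35 (adjusted p = 0.0173); it had 8.62, 8.25 and 8.59 in KO females, against 10.40, 10.36 and 10.71 in WT females, and 10.86, 8.64 and 10.82 in KO males, against 10.92, 11.48 and 11.65 in WT males. KO male 19 alone of the KO males was as low as the KO females. Cebpa, a hepatocyte transcription factor that drives urea cycle genes, differed by -1.13 ± 0.21 (adjusted p = 0.00906), and its relative Cebpb by 0.73 ± 0.14 (adjusted p = 0.0105). Gcgr, the glucagon receptor, differed by -0.74 ± 0.11 (adjusted p = 0.00294), Foxa3 by -1.13 ± 0.18 (adjusted p = 0.00417) and Foxa1 by -0.99 ± 0.18 (adjusted p = 0.00851). Foxa3 differed by -2.005 in females and -0.25 in males (unadjusted p = 0.000638 for genotype by sex, adjusted p = 0.307). Atf5, a stress-response factor, differed by -0.59 (adjusted p = 0.00657) and Sirt5, a mitochondrial deacylase that acts on Cps1, by -0.38 (adjusted p = 0.0147). The second gene called higher was Chac1, a target of the amino acid response, named after its value was seen, with 0.67 ± 0.17 (adjusted p = 0.0347). Sirt5 and Chac1 lay inside the negative control range in every group.

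The position of the hepatocytes in the lobule bears on these genes, since several are zonated. The mean of 8 measured periportal markers differed by -0.06 (exact permutation p = 0.625), with 16.14 to 16.70 in KO livers and 16.39 to 16.80 in WT livers. Its members went both ways: 1 was called higher, Ctsc, by 1.52, and 2 lower, Pigr and Hsd17b13, with -0.81 and -0.26. Hal and Cyp2f2 differed by -0.85 and -0.50 and were not called. Igf1, Pck1 and Arg1 differed by 0.25, 0.11 and 0.04 and were not called, with Arg1 on its plateau. Pck1 repeated the value 19.14, and Hsd17b13 the value 18.65, in livers of both genotypes. The periportal mean includes these repeated values, so it can show a difference only partly. The mean of 9 measured pericentral markers differed by -0.85 (exact permutation p = 0.005, BH p = 0.015), with 10.42 to 11.66 in KO livers and 11.53 to 12.18 in WT livers. Of these 4 were called lower, Cyp2c37, Rgn, Lect2 and Oat, and 2, Lgr5 and Axin2, lay inside the negative control range in every group. Cyp1a2, Tbx3 and Slc1a2 differed by -1.37, -0.67 and 0.08 and were not called. Hal and Arg1 are themselves among the periportal markers, as Oat is among the pericentral ones. The part of zonation in the results was not tested.

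The promoters of 4 called genes are shown as the 250 bases before the RefSeq start (GRCm38.p6), 5′ to 3′ along the gene's strand. Slc25a13 and Hibadh were called within each sex, and Otc had the smallest p of the urea cycle after Slc25a13. Gstz1 had the smallest genotype by sex p of the list. Capitals mark a CCAAT box, or its complement ATTGG where the box is on the other strand. Gstz1 has 2 starts in the table, of which the upstream one is shown.
Slc25a13, chr6:6217174-6217423, minus strand: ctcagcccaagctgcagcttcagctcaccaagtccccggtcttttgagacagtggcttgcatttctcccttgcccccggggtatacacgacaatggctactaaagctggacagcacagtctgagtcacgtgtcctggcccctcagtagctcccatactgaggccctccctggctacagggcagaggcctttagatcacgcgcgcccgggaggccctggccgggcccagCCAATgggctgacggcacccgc
Otc, chrX:10252055-10252304, plus strand: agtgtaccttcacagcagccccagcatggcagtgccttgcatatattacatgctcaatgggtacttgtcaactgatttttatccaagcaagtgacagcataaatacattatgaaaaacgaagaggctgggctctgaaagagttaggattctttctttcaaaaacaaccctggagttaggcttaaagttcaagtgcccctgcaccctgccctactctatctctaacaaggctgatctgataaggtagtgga
Hibadh, chr6:52640301-52640550, minus strand: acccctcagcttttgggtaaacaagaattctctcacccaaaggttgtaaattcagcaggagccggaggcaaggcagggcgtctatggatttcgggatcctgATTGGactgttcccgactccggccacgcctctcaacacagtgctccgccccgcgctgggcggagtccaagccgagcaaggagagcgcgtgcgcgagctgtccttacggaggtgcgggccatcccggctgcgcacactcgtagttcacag
Gstz1, chr12:87146915-87147164, plus strand: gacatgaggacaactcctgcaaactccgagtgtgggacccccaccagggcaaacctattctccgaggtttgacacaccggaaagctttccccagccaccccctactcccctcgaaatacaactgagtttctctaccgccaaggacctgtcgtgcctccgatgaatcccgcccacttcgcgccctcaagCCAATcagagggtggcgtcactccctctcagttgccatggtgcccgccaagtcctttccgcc

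Motifs were searched on both strands of these windows, with the motifs and the printed genes chosen after the values were seen. RefSeq starts were found for 18 of the 19 called genes (20 promoters) and 19 of the 25 others (21 promoters). The letters CCAAT were in 15 of 20 promoters of called genes (75%), 11 of 21 promoters of the others (52.4%), 36.5% of 3828 promoters of bright coding genes and 33.9% of all 32851 promoters. The cAMP response element TGACGTCA was in 0 promoters of either set of members, 2.46% of the bright coding genes and 1.55% of all promoters, the DR1 element, AGGTCA repeated with 1 base between, in 0, 0.0261% and 0.0335%, and the TATA box letters TATAAA in 10% of promoters of called genes, 9.52% of the others, 7.65% of the bright coding genes and 12.4% of all promoters. The Otc window held none of the 4 motifs. Each motif was counted whether or not it overlapped another, and a match is a description of the letters in the window only.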

How the data were processed

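The 12 livers fall into 4 groups of 3 mice, by genotype label and by the M or F of their titles. Values are the deposited log2 signals; the submitters' processing notes name Transcriptome Analysis Console, with no version, and the sources used here do not give background correction, normalization, summarisation or annotation build. The shared maximum of 19.93 exceeds what a 16-bit scanner records, so fold differences hold on this scale only. The number of arrays limits the precision. A gene's value is that of its highest-mean feature with 1 symbol (31258 of 65956 transcript features; 1492 carry several and 33206 none), with older symbols matched through the RefSeq gene table; that matching was widened after a first look at the values.

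A model of 4 group means was fitted with limma 3.58.1 in R 4.3.3 (lmFit, eBayes; 8 residual degrees of freedom), with contrasts over both sexes, within each sex and between them, and Benjamini-Hochberg (BH) adjustment over all 65956 features at 0.05; adjusted p-values are those of limma unless named otherwise. Array measures and marker means were compared with a two-sided exact permutation test that exchanged genotypes inside each sex (400 arrangements). The fit was tested on simulated data. The members, lists and tests were chosen with earlier results of these data known. Full values are given for the urea cycle list, the 14 further members with the smallest p and the 4 with the smallest genotype by sex p, and values of the 8 with the smallest p of each further list. Alternatives were quantile normalization, centring on array medians, a filter on dim features (above the 95th percentile of negative controls on at least 3 arrays), a variance trend with robust prior, the poly-A spike covariate, no sex term, the median over a gene's features, single-sex fits, and leaving out 1 mouse, KO male 19 with WT female 38, KO male 18 with KO female 40, or WT female 25 with WT female 27, the last 2 pairs chosen after seeing the data.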

Additional observations from a re-analysis of the deposited data

How the results depend on the processing

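All 19 called genes kept their sign under the 22 alternatives with a difference over both sexes, and no alternative called a gene higher in KO. The count of lower genes over both sexes (19, with 4.47% of all features lower) was 18 after quantile normalization, Arg1 among them (6.2%), 22 after centring (6.07%), 24 without dim features (25.8% of those kept), 17 with the variance trend (3.97%), 14 without the sex term (3.22%) and 14 without KO male 19 and WT female 38 (3.28%). It was 0 with the poly-A spike covariate, which also gave 0 in females and 0 in males, with 1, 29 and 0 of all features lower; KO and WT spike levels do not overlap within a sex. Centring changed the calls over all features to 4001 lower and 2538 higher, against 2950 and 3482. In females (12 lower, with 3.06% of all features) there were 7 without KO male 19 and WT female 38 (1.62%) and 7 with only the 6 arrays of that sex (1.56%). With 1 mouse left out there were 6 to 13 (925 to 2205 of all features), the 6 without WT female 38. In males (2 lower, with 0.506% of all features) there were 5 after quantile normalization (0.975%), 7 without dim features (7.83% of those kept) and 1 with the variance trend (0.355%). There were 0 without KO male 18 and KO female 40 (0.0682%) and 0 with only the 6 arrays of that sex (0.0273%). With 1 mouse left out there were 0 to 4 (63 to 395 of all features). The lone WT female left in the setting without WT females 25 and 27 is assumed to vary like the other groups. No paired analysis was possible because no animal number occurs in more than 1 group.

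Signs turned only in genes that were not called. Arg1, at its maximum on 10 arrays so that these values do not measure its transcript, was -0.45, -0.0255 and -0.0995 after quantile normalization, centring and the spike covariate, and -0.00368 to 0.0666 with 1 mouse left out. Gpt2 was -0.0773 after quantile normalization, -0.33 without WT females 25 and 27, and -0.0784 to 0.34 with 1 mouse left out. Tat was -0.0317 after centring. With the spike covariate Fah, Bckdha and Dbt were 0.19, 0.12 and 0.10. Without KO male 18 and KO female 40, Asl, Fah, Gnmt, Dbt and Aass were 0.28, 0.18, 0.0247, 0.25 and 0.21. With 1 mouse left out their ranges were -0.27 to 0.16, -0.28 to 0.15, -0.11 to 0.0247, -0.46 to 0.0289 and -0.39 to 0.0479, the upper ends all without KO female 40, and that of Bckdhb was -0.00226 to 0.33. Asl was 0.000275 without KO male 19 and WT female 38. The cause was not tested.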

Other observations

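Further enzymes outside the rule for named genes, chosen after their values were seen, are given as values. Amdhd1, the step of histidine breakdown between Uroc1 and Ftcd, averaged 11.24 ± 0.63 in KO livers and 13.12 ± 0.43 in WT livers (SD, n = 6 each), a difference of -1.88 ± 0.30 (limma adjusted p = 0.00448); no KO value reached a WT value, whereas Hal, Uroc1 and Ftcd did not pass. Got2, the mitochondrial partner of Got1, averaged 15.14 ± 0.81 in KO livers and 16.36 ± 0.27 in WT livers, a difference of -1.22 ± 0.21 (limma adjusted p = 0.00601). Agxt, which detoxifies glyoxylate by transamination, differed by -1.75 ± 0.47 (limma adjusted p = 0.0455), Abat, the aminotransferase of beta-alanine and GABA, by -1.43 ± 0.22 (limma adjusted p = 0.00373), and Ido2, a tryptophan dioxygenase, by -1.28 ± 0.26 (limma adjusted p = 0.0121). For Ido2 all KO females lay inside the negative control range. Each of these enzymes was lower in KO livers, but among all 60 further enzymes 48 differences were negative and 12 positive. Acmsd differed by 1.496 ± 0.601 (limma adjusted p = 0.165) and was not called. In females Acmsd differed by 2.52 (limma adjusted p = 0.121), with every KO female above every WT female. Asns differed by 1.04 ± 0.689 (limma adjusted p = 0.416) and was not called.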
